A study of Mus musculus with 10 samples.

Results

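Microglia are the resident macrophages of the brain, and 33 genes used to mark them were read in the hippocampus of Dp5/Dp1 mice, a model of Down syndrome, and of littermate controls. The genes were a named list, each read from the probe set with 1 gene symbol and the highest mean. All 33 had exactly 1 such probe set, among 19938 genes tested. None of the 33 lies on chromosome 16, which carries the duplications, so these add no copy of any of them. Gpr34 lies on chromosome X, of which male mice have 1.

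The control group was 5 littermates and the mutant group 5 Dp5/Dp1 mice, all male and 16 weeks old, with total RNA of the whole right and left hippocampus on 1 array per mouse. Dp5/Dp1 mice carry both Dp5Yah and Dp1Rhr, segmental duplications of mouse chromosome 16 that add a copy of the genes inside in every cell of the body. The background is C57BL/6N by the labels and C57BL/6J by the methods of the study. Controls were shared with mice of each duplication alone, lines not analysed here, and their arrays carry a reanalysis mark. Array titles of the mutants mention Dp5Yah before the combined model, but genes of both intervals were higher on all of them: the lowest Dp5/Dp1 array exceeded the highest control array for Ifnar2 of Dp5Yah (9.94 against 9.45) and for Ets2 of Dp1Rhr (10.34 against 10.16). Values are log2 expression after RMA, differences are Dp5/Dp1 minus control on that scale, and "called" means an adjusted p under 0.05 from limma over all genes.

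Microglia sense neurons and tissue state through receptors such as CX3CR1 and P2RY12, survive on CSF1R signalling, and keep their identity through transcription factors such as PU.1 and SALL1. They also make most of the complement component C1q of the brain, and they take up debris through TREM2 and Fc receptors that signal through the adaptors TYROBP and FCER1G. P2ry12, Tmem119, Sall1 and Siglech mark microglia within the macrophage family, whereas Lyz2, Cd74, Ptprc, Csf3r, Laptm5, Cd53 and Itgam are also used by other leukocytes. The microglial markers of the first group, and Cx3cr1, were well measured here, all outside the dimmest 40% of genes. Control means were 9.40 for Cx3cr1, 8.27 for P2ry12, 8.92 for Tmem119, 8.21 for Sall1 and 8.01 for Siglech. Only Gpr34, Csf3r, Aif1 and Ptprc fell in the dimmest 40%, where RMA compresses differences.

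The first question was whether the microglia genes differed between Dp5/Dp1 and control hippocampus. None of the 33 was called (0 of 33), against 41 of 19938 genes or 0.206% over the whole array, and the lowest adjusted p among them was 0.806 in limma. At an unadjusted p under 0.05 there were 3 of 33 (9.09%), against 6.06% of all genes: 2 with higher means, Unc93b1 and Fcer1g (3.39% of all genes), and 1 with a lower mean, Selplg (2.67% of all genes). The mean was higher in Dp5/Dp1 for 18 of the 33 and lower for 15, where 51.5% of all genes had a higher mean. The median difference over the 33 was 0.0026, and that over all genes was 0.0019. In no member did the 2 groups of arrays fail to overlap, against 1.08% of all genes. The study's own rank method, FCROS, passed 4 of 33 (12.1%) against 5.06% of all genes, namely Fcer1g, Lyz2 and Unc93b1 as higher and Selplg as lower.

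The intervals bound what a change could have been. For 31 of the 33 genes the 95% interval of the difference stayed within 0.585 on either side of 0, which is 1.5-fold, and for 29 it stayed within 0.3. Lyz2 and Cd74 were the exceptions at 1.5-fold. The median distance from a difference to either end of its interval was 0.128. In whole tissue, fewer microglia and less of an RNA in each microglial cell cannot be told apart.

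**Figure D1:**
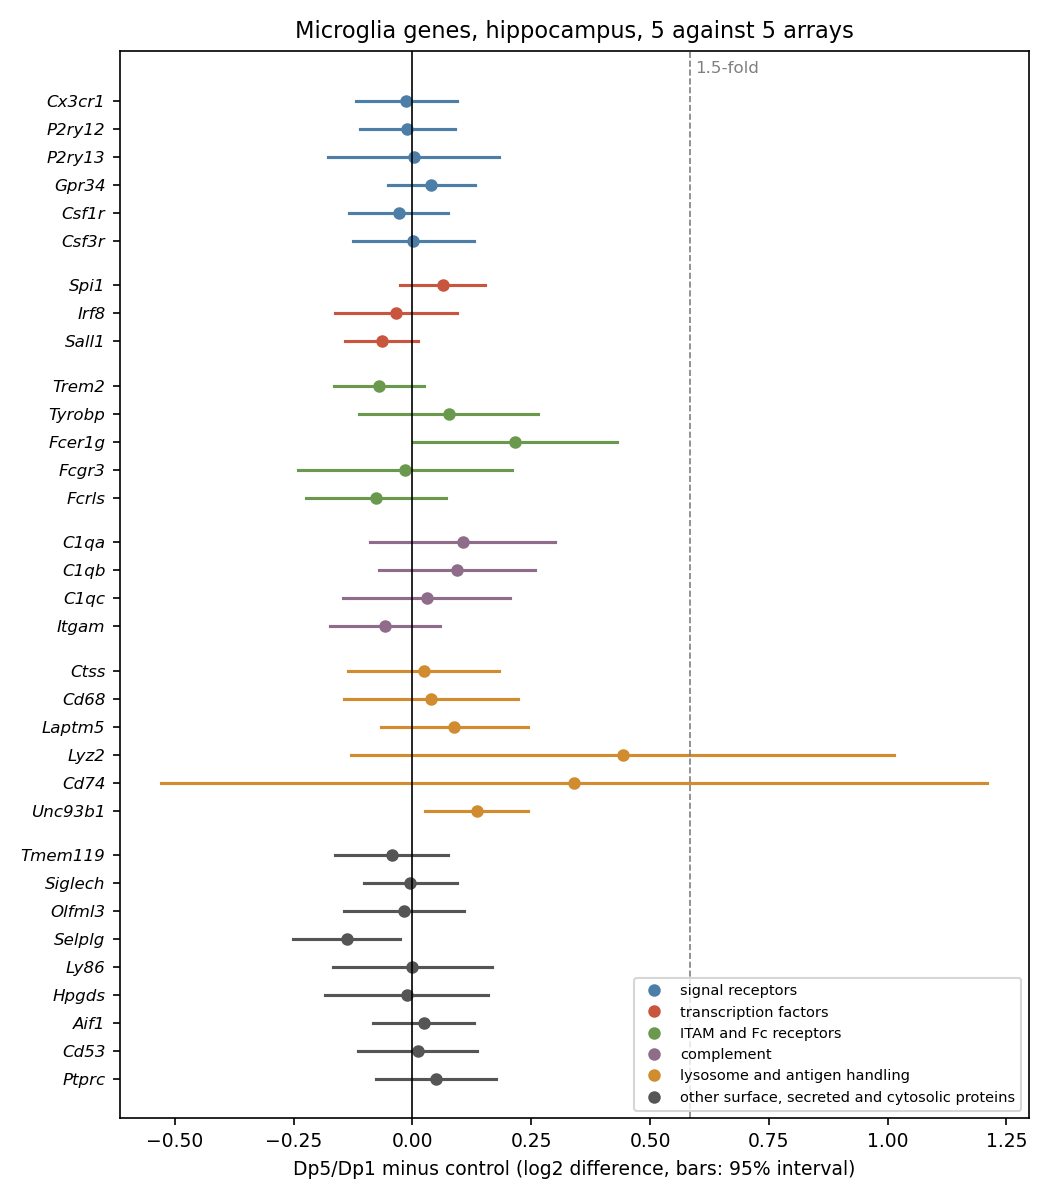
Difference of each of the 33 microglia genes between Dp5/Dp1 and control hippocampus, as log2 difference on the x axis with its 95% interval from limma, ordered and coloured by role. Points lie on both sides of 0 (18 higher, 15 lower), the dashed line marks 1.5-fold, and only the intervals of Lyz2 and Cd74 reach it.

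The receptors for signals from neurons and glia differed between the groups by less than the spread between mice. Cx3cr1, the receptor of the neuronal chemokine fractalkine, read 9.38, 9.42, 9.33, 9.43 and 9.44 on control replicates 1 to 5 and 9.48, 9.30, 9.37, 9.27 and 9.51 on the Dp5/Dp1 replicates. P2ry12, the receptor through which microglial processes move towards ADP, read 8.32, 8.36, 8.26, 8.19 and 8.21 in controls and 8.34, 8.27, 8.26, 8.12 and 8.29 in Dp5/Dp1 mice. Csf1r, the receptor on which microglial survival depends, read 9.94, 9.78, 9.89, 9.97 and 9.81 in controls and 9.85, 9.76, 9.90, 9.79 and 9.95 in Dp5/Dp1 mice. The groups of all 3 genes interleave, with the widest spread of Cx3cr1 on the Dp5/Dp1 side. Their differences were -0.013 ± 0.049 (SE, n = 5 per group), -0.011 ± 0.046 and -0.028 ± 0.048, each smaller than its SE. The other signal receptors, P2ry13, Gpr34 and Csf3r (the receptor of granulocyte colony-stimulating factor), had differences between 0.0023 and 0.039. The ligands of these receptors gave no call either: the difference was 0.048 ± 0.037 for Csf1 and -0.00086 ± 0.048 for Il34, both ligands of CSF1R, and 0.0094 ± 0.040 for Cx3cl1, which encodes fractalkine.

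The transcription factors gave small differences of both signs. Spi1, which encodes PU.1, the factor that sets up the myeloid lineage, read 7.59, 7.59, 7.52, 7.56 and 7.63 in controls and 7.73, 7.62, 7.67, 7.52 and 7.67 in Dp5/Dp1 mice. Sall1, which keeps microglia apart from other macrophages, read 8.15, 8.27, 8.24, 8.19 and 8.20 in controls and 8.12, 8.20, 8.17, 8.18 and 8.06 in Dp5/Dp1 mice. Irf8, a partner of PU.1, read 7.58, 7.41, 7.47, 7.57 and 7.43 in controls and 7.36, 7.45, 7.51, 7.34 and 7.63 in Dp5/Dp1 mice. Of the Dp5/Dp1 arrays, 3 exceeded every control and 1 lay below every control for Spi1, 2 lay below every control and none above for Sall1, and 2 lay below and 1 above every control for Irf8. The differences were 0.063 ± 0.041 for Spi1 (adjusted p = 0.848 in limma), -0.065 ± 0.035 for Sall1 (adjusted p = 0.832 in limma) and -0.035 ± 0.058 for Irf8.

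Of the 5 receptors and adaptors of ITAM and Fc signalling, 2 had a higher and 3 a lower mean in Dp5/Dp1 mice, and none was called. Fcer1g, the common gamma chain that Fc receptors signal through, read 9.15, 9.18, 9.34, 9.35 and 9.11 in controls and 9.74, 9.27, 9.56, 9.16 and 9.47 in Dp5/Dp1 mice. Dp5/Dp1 replicates 1, 3 and 5 exceeded every control and the other two lay within the control range. The difference was 0.216 ± 0.098 (adjusted p = 0.823 in limma), and 0.14 without Dp5/Dp1 replicate 1. Fcgr3, the low-affinity IgG receptor that uses this chain, had a difference of -0.016 ± 0.10. Trem2, the lipid receptor of microglia, read 8.64, 8.59, 8.57, 8.70 and 8.58 in controls and 8.54, 8.52, 8.69, 8.51 and 8.48 in Dp5/Dp1 mice. Of the Dp5/Dp1 arrays, 4 lay below every control and replicate 3 lay near the top of the control range, and the difference was -0.071 ± 0.043 (adjusted p = 0.844 in limma). Leaving out replicate 3 was the only removal of 1 array that brought Trem2 under an unadjusted p of 0.05. The TREM2 adaptor Tyrobp had a difference of 0.076 ± 0.086, and Fcrls, an Fc receptor-like gene typical of mouse microglia, one of -0.077 ± 0.068. Downstream of them, Syk, the kinase that binds phosphorylated ITAMs, had a difference of 0.051 ± 0.034.

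Complement C1q is built from chains of 3 genes that lie within 18.7 kb of each other on chromosome 4, and their levels varied together from mouse to mouse. C1qa read 8.88, 8.70, 8.91, 8.95 and 8.82 in controls and 9.09, 8.77, 9.08, 8.69 and 9.16 in Dp5/Dp1 mice. C1qb read 10.36, 10.45, 10.68, 10.62 and 10.54 in controls and 10.79, 10.50, 10.68, 10.44 and 10.70 in Dp5/Dp1 mice. C1qc read 9.39, 9.37, 9.57, 9.54 and 9.45 in controls and 9.62, 9.34, 9.64, 9.24 and 9.62 in Dp5/Dp1 mice. In all 3 genes, Dp5/Dp1 replicates 1, 3 and 5 were high and replicates 2 and 4 low. Fcer1g, on chromosome 1, was also higher on replicates 1, 3 and 5 than on 2 and 4. That order of arrays was thus not particular to the C1q genes. Of the Dp5/Dp1 arrays, 3 exceeded every control for C1qa and for C1qc, and 2 for C1qb. Below every control lay 1 for C1qa, 2 for C1qc and none for C1qb. The Dp5/Dp1 group spread more widely than the controls. SDs were 0.21 against 0.096 for C1qa, 0.14 against 0.13 for C1qb and 0.19 against 0.088 for C1qc. The group differences were 0.11 ± 0.089 for C1qa, 0.094 ± 0.075 for C1qb and 0.030 ± 0.081 for C1qc, with adjusted p of 0.881, 0.876 and 0.961 in limma. Itgam, the alpha chain of complement receptor 3, differed by -0.058 ± 0.053, and its partner chain Itgb2 by 0.075 ± 0.052.

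Across the 10 arrays, Pearson's r was 0.92 for C1qa with C1qc (permutation p = 0.00027), 0.877 for C1qb with C1qc (permutation p = 0.00166) and 0.801 for C1qa with C1qb (permutation p = 0.00716). Adjusted over the 8 pairs of partners examined, these permutation p were 0.00216, 0.00664 and 0.0191, two-sided. Spearman's rho was 0.915, 0.842 and 0.83, with adjusted permutation p of 0.00376, 0.0126 and 0.0126. Without the 2 arrays farthest from the median of the first gene, r was 0.909, 0.959 and 0.767, and as deviations from the group means it was 0.944, 0.902 and 0.774. The other five pairs did not pass: r was -0.432 for Trem2 with Tyrobp, 0.315 for Fcer1g with Fcgr3, 0.421 for P2ry12 with P2ry13, 0.039 for Csf1r with Spi1 and 0.472 for Itgam with Itgb2, with adjusted permutation p of 0.301, 0.427, 0.301, 0.912 and 0.301. As deviations from the group means their r was -0.361, 0.41, 0.423, 0.157 and 0.723, so that Itgam with Itgb2 came nearer to the C1q pairs on this measure, which carries no test. Their rho was -0.394, 0.309, 0.309, 0.0667 and 0.455, with adjusted permutation p of 0.421, 0.443, 0.443, 0.863 and 0.386. Without the 2 farthest arrays their r was -0.293, 0.665, 0.283, 0.234 and 0.376. Points of a pair share the array, so the RNA sample and the microglial share of the tissue are common to both genes. The C1q genes were not paired with other members, so whether their joint variation is particular to C1q was not tested.

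**Figure D2:**
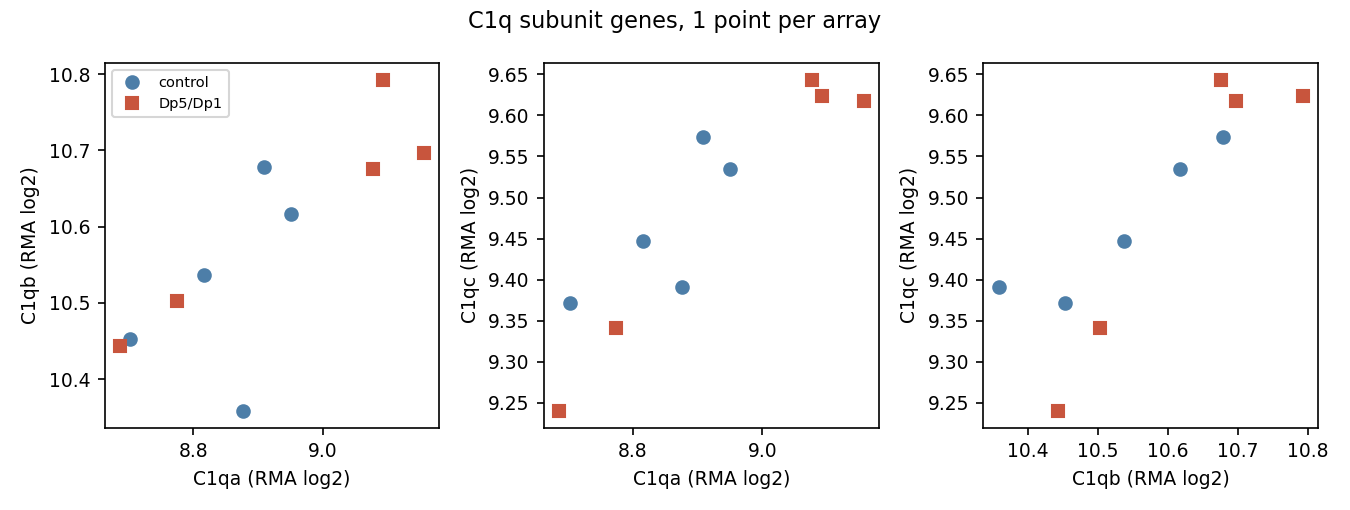
Levels of the C1q subunit genes on each of the 10 arrays, one gene against another in RMA log2 units, circles for controls and squares for Dp5/Dp1 mice. In each panel the points rise together (r between 0.801 and 0.92). For C1qa and C1qc the same 3 Dp5/Dp1 arrays exceed every control, and the other Dp5/Dp1 arrays lie within or below the control range.

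The bases before the starts of the C1q genes are shown because these genes varied together. Windows of 300 bases around gene starts (250 before to 50 after, RefSeq, GRCm38.p6) were found for 24 of the 33 genes, with C1qa not among them. The word searched on both strands was GAGGAA, the core to which PU.1 is known to bind. It occurred in the windows of 16 of these 24 genes (66.7%), against 31.3% of the 27025 genes with a window. The longer word GAGGAAGT, which contains it, occurred in 4 of the 24 (16.7%), namely C1qc, Cd53, Ctss and Hpgds, against 3.69% of all genes. A match of letters is a description and not a measured binding site. The C1qc gene reaches chr4:136892936, beyond the start used for its window, so the last bases shown for it below lie inside the gene. For C1qb (chr4:136886201-136886450, minus strand) and C1qc (chr4:136892915-136893164, minus strand) the 250 bases before the start read as follows, 5′ to 3′, with the match or its reverse complement in capitals, at position -30 on the strand of the gene for C1qb and at -193 on the other strand for C1qc.
C1qb: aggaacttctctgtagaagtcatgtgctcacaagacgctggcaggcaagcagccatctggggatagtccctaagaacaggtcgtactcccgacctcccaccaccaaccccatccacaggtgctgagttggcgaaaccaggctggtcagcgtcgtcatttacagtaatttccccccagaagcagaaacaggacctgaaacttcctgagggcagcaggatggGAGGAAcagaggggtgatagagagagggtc
C1qc: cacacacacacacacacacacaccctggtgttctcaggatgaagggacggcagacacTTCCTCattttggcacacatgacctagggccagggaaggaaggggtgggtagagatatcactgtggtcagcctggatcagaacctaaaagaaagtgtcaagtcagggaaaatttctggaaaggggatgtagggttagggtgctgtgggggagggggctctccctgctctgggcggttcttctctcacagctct

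All 6 genes of lysosome and antigen handling had a higher mean in Dp5/Dp1 mice, and none was called. Unc93b1, which carries nucleic acid-sensing Toll-like receptors to endosomes, read 8.12, 7.97, 8.01, 8.02 and 8.09 in controls and 8.24, 8.20, 8.19, 8.01 and 8.26 in Dp5/Dp1 mice. Every Dp5/Dp1 array but replicate 4 exceeded all controls. Its difference of 0.135 ± 0.049 (adjusted p = 0.806 in limma) had the lowest p of the 33, and it was 0.179 ± 0.038 without replicate 4 (adjusted p = 0.231 in limma). Laptm5, a lysosomal membrane protein of blood-derived cells, read 10.15, 10.24, 10.44, 10.28 and 10.32 in controls and 10.52, 10.32, 10.54, 10.19 and 10.32 in Dp5/Dp1 mice, a difference of 0.088 ± 0.071. Ctss, a lysosomal protease, and Cd68, a lysosomal glycoprotein, differed by 0.023 ± 0.073 and 0.039 ± 0.084.

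Lyz2 and Cd74 varied far more between mice than the other members. Lyz2, lysozyme M, a bactericidal enzyme of macrophages whose sequence is close to that of Lyz1, read 8.26, 7.72, 7.73, 8.15 and 7.83 in controls and 8.42, 8.09, 8.34, 7.64 and 9.42 in Dp5/Dp1 mice. Cd74, the invariant chain of MHC class II, read 7.34, 6.37, 6.71, 7.34 and 6.86 in controls and 6.97, 6.62, 7.42, 6.42 and 8.89 in Dp5/Dp1 mice. In both genes Dp5/Dp1 replicate 5 stood above every other array and Dp5/Dp1 replicate 4 was at or near the bottom. The pooled within-group SD was 0.497 for Lyz2 and 0.758 for Cd74, where the median over the 33 genes was 0.102 and over all genes 0.0698. The differences were 0.443 ± 0.261 (adjusted p = 0.841 in limma) for Lyz2 and 0.341 ± 0.398 (adjusted p = 0.912 in limma) for Cd74, and without Dp5/Dp1 replicate 5 they were 0.183 ± 0.163 and -0.066 ± 0.233.

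The MHC class II genes H2-Aa, H2-Ab1 and H2-Eb1, whose products CD74 escorts, were highest on the same array as Cd74. H2-Aa, an alpha chain, read 6.24, 5.77, 5.90, 6.11 and 6.03 in controls and 5.94, 5.86, 6.25, 5.67 and 7.85 in Dp5/Dp1 mice. H2-Ab1, its beta chain, read 6.69, 6.17, 6.00, 6.50 and 6.35 in controls and 6.26, 6.09, 6.73, 5.97 and 8.32 in Dp5/Dp1 mice. Dp5/Dp1 replicate 5 again stood alone, and the next highest arrays were Dp5/Dp1 replicate 3 and control replicates 1 and 4. All 5 measured MHC class II genes had a higher mean in Dp5/Dp1 mice and none was called. Without Dp5/Dp1 replicate 5 the differences of H2-Aa and H2-Ab1 were both -0.078. H2-DMa, which helps load peptides onto class II, had the lowest p of them, with 0.176 ± 0.063 (adjusted p = 0.797 in limma). H2-DMa and Ciita, the remaining genes of the list, were highest on Dp5/Dp1 replicate 1 instead, at 9.02 and 6.13. On Dp5/Dp1 replicate 5 they read 8.72 and 6.09.

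The choroid plexus lies against the hippocampus, and the mean of its 13 measured markers was 8.72, 6.68, 6.83, 8.57 and 8.07 in controls and 6.79, 7.08, 8.03, 6.81 and 8.31 in Dp5/Dp1 mice. Control replicates 1 and 4 and Dp5/Dp1 replicates 3 and 5 were thus high in choroid plexus markers as well as in Cd74, H2-Aa and H2-Ab1, although control replicate 1 was highest in the former and Dp5/Dp1 replicate 5 in the latter. Control replicate 5, at 8.07 for the choroid plexus markers, read only 6.86 for Cd74. With these markers as a covariate the differences became 0.591 ± 0.201 for Lyz2 (adjusted p = 0.672 in limma) and 0.595 ± 0.266 for Cd74 (adjusted p = 0.705 in limma). With medial habenula markers as a second covariate they were 0.495 ± 0.226 and 0.496 ± 0.303. The part of the choroid plexus in these levels was not tested. Markers of border macrophages had list means of 5.82 to 6.06 in controls and 5.84 to 5.94 in Dp5/Dp1 mice, with 10 of the 11 genes in the dimmest 40% and no call, the lowest p being those of Pf4 (0.095 ± 0.061) and Lyve1 (-0.12 ± 0.080). The list means of monocyte and neutrophil genes, 9 measured and all dim, ran from 5.32 to 5.36 and from 5.32 to 5.43, and those of 10 lymphocyte genes from 5.69 to 5.77 and from 5.71 to 5.82. The highest array of both lists was Dp5/Dp1 replicate 5. Their genes with the lowest p were Ngp (0.083 ± 0.043) and Camp (0.056 ± 0.044) of neutrophils, Nkg7 (0.12 ± 0.045) of cytotoxic lymphocytes and Ms4a1 (0.045 ± 0.028) of B cells, none called. The erythroid gene Alas2, the only one of its list measured, was also highest on Dp5/Dp1 replicate 5, at 8.12 with the next array at 7.76, and differed by 0.28 ± 0.13.

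**Figure D3:**
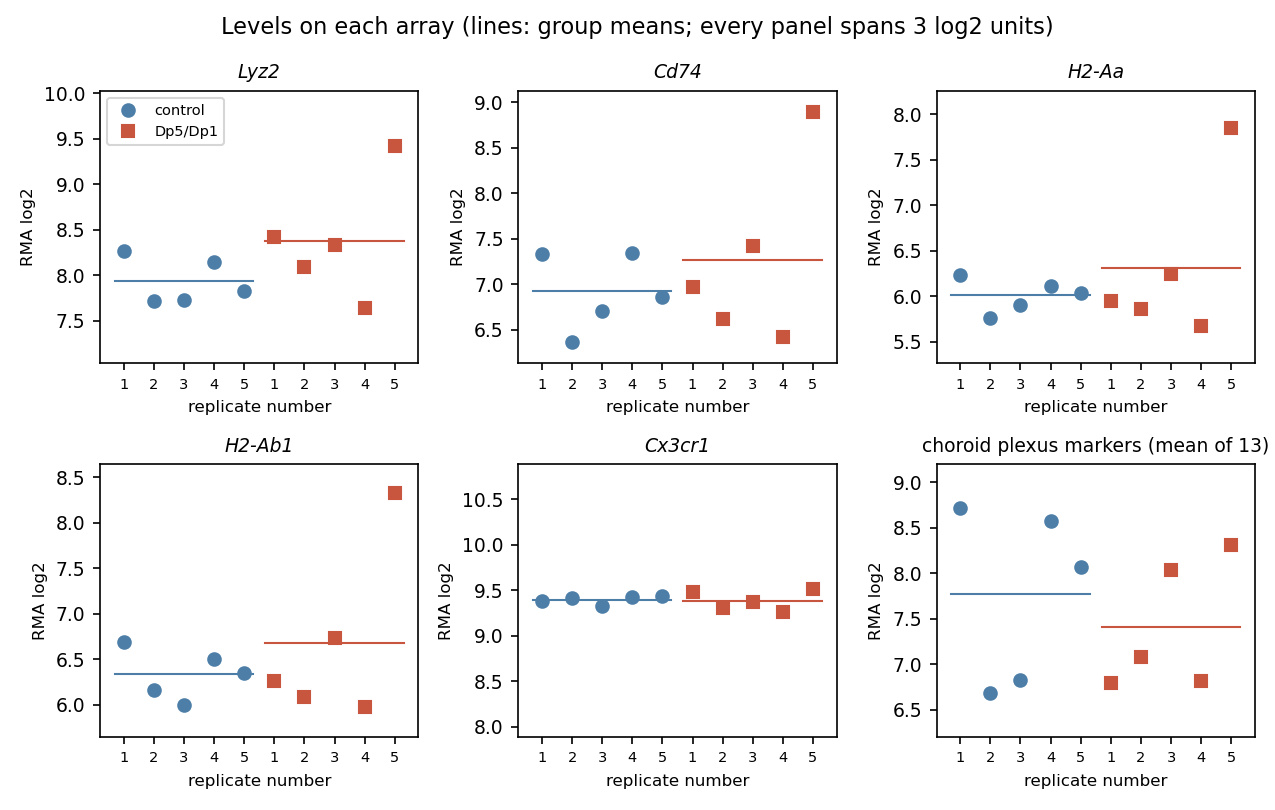
RMA log2 levels on each array for Lyz2, Cd74, the MHC class II genes H2-Aa and H2-Ab1, the microglial marker Cx3cr1 and the mean of 13 choroid plexus markers, by replicate number, with circles for controls, squares for Dp5/Dp1 mice and lines at the group means. Dp5/Dp1 replicate 5 is highest in the first 4 panels, at 9.42, 8.89, 7.85 and 8.32. Cx3cr1 is also highest on that array, but stays between 9.27 and 9.51 on all arrays.

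Of the 9 remaining surface, secreted and cytosolic proteins, 3 had a higher and 6 a lower mean. Selplg, which encodes the selectin ligand PSGL-1 and lies 17.4 kb from Tmem119 on chromosome 5, read 9.47, 9.50, 9.66, 9.73 and 9.56 in controls and 9.40, 9.48, 9.50, 9.37 and 9.48 in Dp5/Dp1 mice. Only 2 of the Dp5/Dp1 arrays lay below every control, and the difference was -0.14 ± 0.052 (adjusted p = 0.806 in limma). Tmem119, a membrane protein that sets microglia apart from blood-derived macrophages, read 8.87, 8.79, 8.95, 9.08 and 8.91 in controls and 8.90, 8.81, 8.91, 8.78 and 8.97 in Dp5/Dp1 mice, a difference of -0.044 ± 0.055. Ly86, the MD-1 partner of the Toll-like receptor relative RP105, read 10.17, 10.30, 10.22, 10.42 and 10.13 in controls and 10.32, 10.27, 10.38, 9.97 and 10.30 in Dp5/Dp1 mice. Its group means were equal at 10.25, with Dp5/Dp1 replicate 4 below every other array. The others, Siglech, Olfml3, Hpgds, Aif1 (which encodes the microglial stain IBA1), Cd53 and Ptprc (CD45), differed by -0.018 to 0.050.

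The second question was how far the microglial signal varied from mouse to mouse. For each array, the deviation of every member from its own mean over 10 arrays was taken. The median deviation of the 33 genes was 0.011, -0.060, -0.011, 0.040 and -0.038 on control replicates 1 to 5 and 0.070, -0.041, 0.041, -0.135 and 0.080 on the Dp5/Dp1 replicates. The highest and the lowest array were thus both from Dp5/Dp1 mice, 0.215 or 1.16-fold apart, and the controls lay between them. On Dp5/Dp1 replicate 4 only 3 of the 33 genes exceeded their own mean and 19 had their lowest value of the 10 arrays, whereas 47.8% of all genes exceeded their mean there and 9.33% had their lowest value. That array had the lowest median in each of the 6 role groups, from -0.093 for the transcription factors to -0.229 for lysosome and antigen handling. On Dp5/Dp1 replicate 5, 25 of the 33 exceeded their mean. The counts on Dp5/Dp1 replicates 1, 2 and 3 were 23, 11 and 23, and on control replicates 1 to 5 they were 19, 12, 14, 23 and 11.

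Several other marker lists were also low on Dp5/Dp1 replicate 4. The median deviation there was -0.075 for astrocytes, -0.092 for oligodendrocytes, -0.124 for meninges and pericytes and -0.796 for choroid plexus, each the lowest of the 10 arrays for its list. It was -0.188 for the medial habenula and -0.269 for the erythroid gene, whereas it was 0.032 for endothelial cells and 0.027 for neurons. None of these lists, nor those of the choroid plexus, the medial habenula, the meninges with pericytes and the hippocampal fields, held a called gene. The genes with the lowest p were Gja1 (-0.11 ± 0.041) and Slc1a2 (-0.070 ± 0.027) of astrocytes, Ermn (-0.14 ± 0.073) and Opalin (0.32 ± 0.18) of oligodendrocytes, Cldn5 (0.25 ± 0.068) and Tek (0.22 ± 0.063) of endothelial cells, and Gad1 (0.093 ± 0.030) and Nefm (0.081 ± 0.043) of neurons. In the lists of neighbouring tissue and fields they were Tmem72 (-0.57 ± 0.44) and Kl (-0.43 ± 0.34) of the choroid plexus, where all 13 genes had a lower mean, Tac2 (0.92 ± 0.40) and Lrrc55 (0.39 ± 0.19) of the habenula, where all 10 had a higher mean, Kcnj8 (-0.054 ± 0.047) and Vtn (0.071 ± 0.078) of the meninges and pericytes, and Zbtb20 (-0.12 ± 0.058) and Calb1 (-0.059 ± 0.050) of the fields. Dp5/Dp1 replicate 4 was singled out as low in the 33 microglia genes, so leaving it out raises most of their Dp5/Dp1 means by construction. Without this array, 23 of the 33 had a higher mean in Dp5/Dp1 mice and the median difference was 0.050. At an unadjusted p under 0.05 in limma there were then 5 (Unc93b1, Fcer1g, Spi1, Lyz2 and C1qa). None of them was called without it, and the lowest adjusted p was 0.231 in limma. Array medians over all genes were alike (6.73 to 6.80), and what sets this array apart was not tested.

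**Figure D4:**
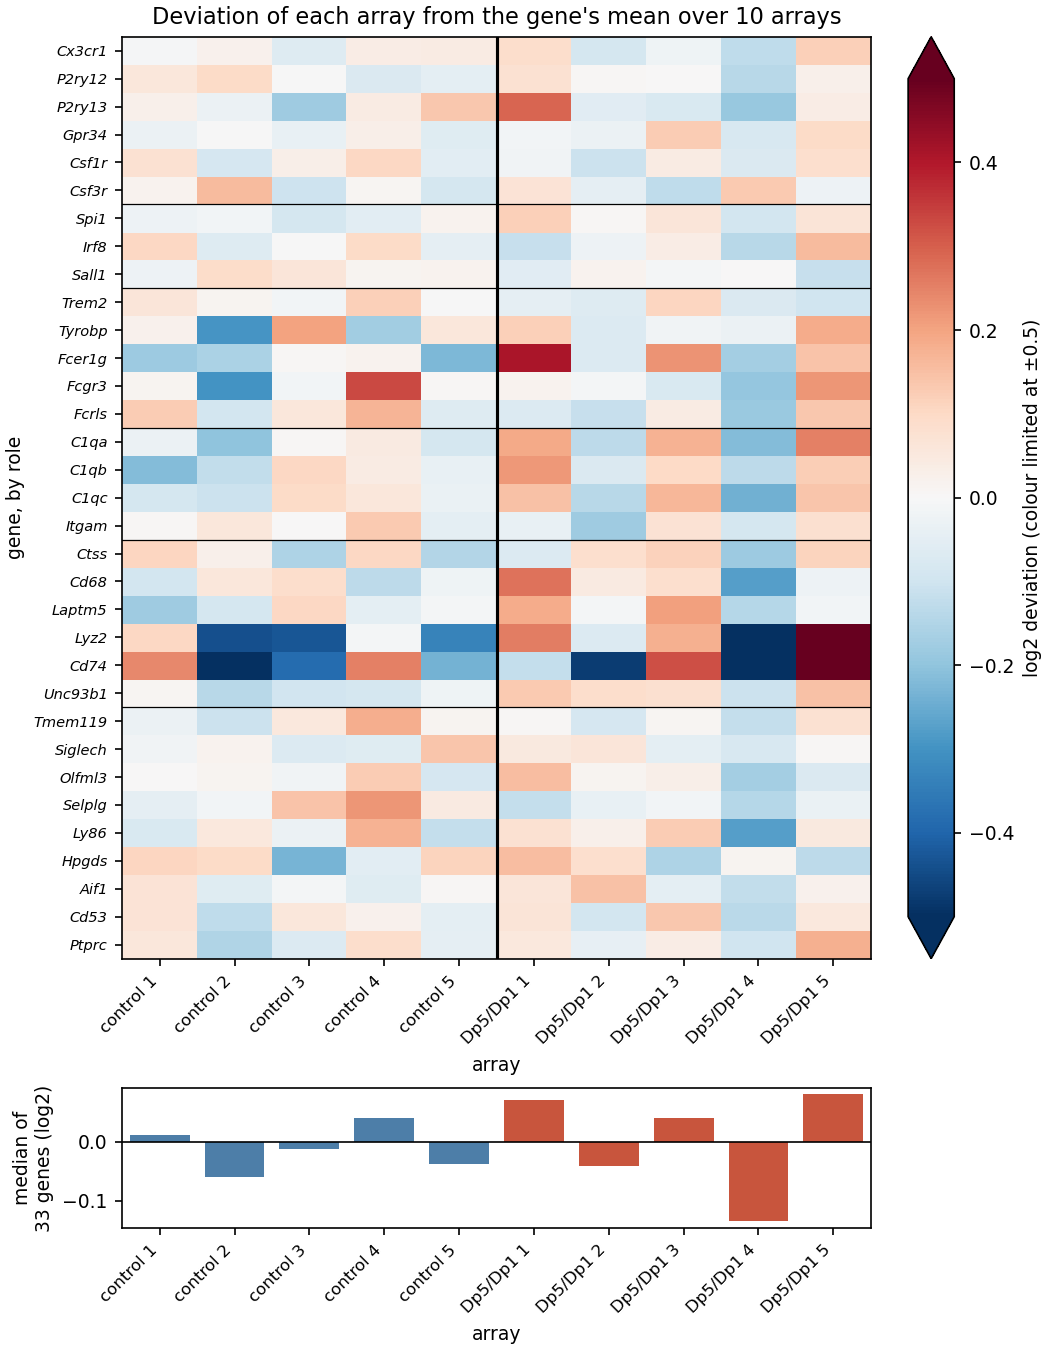
Deviation of each array from the gene's mean over the 10 arrays, in log2 units with the colour limited at ±0.5, for the 33 microglia genes ordered by role (lines separate roles), and below it the median over the 33 genes on each array. The column of Dp5/Dp1 replicate 4 is low across roles, with a median of -0.135, and Lyz2 and Cd74 carry the strongest colours.

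Other genes of microglial pathways were described from lists beside the 33 members. Among 14 further homeostatic microglia genes none was called, 6 had a higher and 8 a lower mean, and the 2 with the lowest p were Sparc, a matricellular protein (-0.12 ± 0.046), and P2ry6, the UDP receptor for phagocytosis (0.11 ± 0.045). The 11 ligands of microglial receptors held no call, with Apoe, the apolipoprotein that TREM2 binds, at -0.10 ± 0.039 and Cd200, a neuronal restraint on microglia, at 0.070 ± 0.041. In TREM2 and ITAM signalling, 10 genes held no call, with Blnk, a SYK substrate, at 0.15 ± 0.072 and Plcg2, a phospholipase, at -0.11 ± 0.057. The 9 further complement genes and receptors had a higher mean in 8 and no call, with C3ar1, the C3a receptor, at 0.16 ± 0.096 and C1ra, a C1 protease, at 0.086 ± 0.058. Of 12 Toll-like receptors and their partners none was called, and the lowest p were those of Tlr3, a client of UNC93B1 that binds double-stranded RNA (0.146 ± 0.053), and Ly96, the MD-2 partner of TLR4 (0.206 ± 0.117). The 13 inflammatory cytokine and chemokine genes, 11 of them dim, held no call, with Casp1 at 0.12 ± 0.044 and Ccl5 at 0.12 ± 0.057. Nor did 11 further transcription factors of the macrophage lineage, with Smad3, a mediator of TGF-beta signals, at -0.095 ± 0.036 and Bhlhe41 at -0.11 ± 0.046.

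The disease-associated microglia list, genes that microglia raise around plaques and in ageing, had 1 call among 20 measured genes. Over the whole array 0.206% of genes were called. Gpnmb, a lysosomal glycoprotein, read 7.35, 7.34, 7.43, 7.47 and 7.36 in controls and 7.69, 7.65, 7.68, 7.57 and 7.60 in Dp5/Dp1 mice. Its groups did not overlap, as in 1.08% of all genes, and it rose by 0.249 ± 0.037 (adjusted p = 0.016 in limma). The call was lost when any of control replicates 1, 2 and 5 or Dp5/Dp1 replicates 1, 2 and 3 was left out, with adjusted p of 0.0526 to 0.0671 in limma. It was also lost with the replicate block (adjusted p = 0.175 in limma), with choroid plexus and habenula covariates together (adjusted p = 0.137 in limma) and without Dp5/Dp1 replicates 2 and 5 (adjusted p = 0.124 in limma). Of the 20, 12 had a higher and 8 a lower mean, with a median of 0.026. The list was chosen with earlier results of these data known, and whole-tissue levels of Gpnmb need not be those of microglia.

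Of 7 chromosome 16 genes with known roles in macrophages that lie in the intervals or at their edge, all 7 were called higher, as were 0.201% of all genes. The 7 were listed for their position as well, and most of all genes lie outside the intervals. The share called among other genes of the intervals is not given here, so the count says nothing particular to macrophage genes. The type I interferon receptor chains Ifnar1 and Ifnar2 rose by 0.444 ± 0.040 and 0.662 ± 0.044, the interferon-gamma receptor chain Ifngr2 by 0.431 ± 0.048 and the interleukin-10 receptor chain Il10rb by 0.502 ± 0.038. Runx1, a transcription factor of blood cells at the edge of Dp5Yah, rose by 1.14 ± 0.075. By the methods of the study the duplication adds no complete copy of it, so its probe set need not read complete Runx1 RNA. These genes are used by many cell types of the hippocampus, so their levels do not read microglia alone.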

How the data were processed

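The authors normalized Affymetrix Mouse Gene 1.0 ST arrays by RMA and deposited log2 expression values of 35556 probe sets on 10 arrays. RMA, limma and mm10 are listed in the submitters' processing notes, and their versions are not given in the sources used here. Labels state 200 ng of RNA per target, and the methods of the study a smaller amount. Groups came from the condition label. Quantile normalization in RMA gives arrays like distributions (array medians 6.73 to 6.80).

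Of the probe sets, 21789 had 1 symbol in the platform annotation, 1621 several (not used) and 12146 none. Of those with 1 symbol, 21698 were found in the GRCm38 RefSeq table. The probe set with the highest mean was read for each of 19938 genes. The test was limma 3.58.1 (lmFit, then eBayes, in R 4.3.3), two-sided and without covariates, at a Benjamini-Hochberg adjusted p of 0.05 over all genes. Partner genes were tested with 100000 permutations. The members and lists were chosen with earlier results of these data known. Named were all members by role, with array values for the 8 lowest p, the 10 markers Cx3cr1, P2ry12, Tmem119, Csf1r, Trem2, C1qa, C1qb, C1qc, Spi1 and Irf8, and outlying members, and in each other list the called genes or the 2 with the lowest p. Array values of Cd74, H2-Aa, H2-Ab1 and Gpnmb, and the naming of Ifngr2 and Ets2, were added after their values were seen. List genes without a probe set of 1 symbol were not analysed here.

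Alternatives were the dimmest 40% of genes left out, renewed quantile normalization, median centring, the mean of probe sets, each probe set separately, trend and robust variance, array weights, a replicate block, choroid plexus and habenula covariates, arrays left out, and FCROS, rewritten here from its description (25 pairs, trim 0.25, tails of 0.025). On simulated data with the spreads of these 19938 genes, limma called 27 of 50 genes given a change of 0.2. It called 42 of 50 at 0.3 and 49 of 50 at 0.6. The median within-group SD was 0.102 for the microglia genes and 0.0698 for all genes. The simulated counts therefore do not measure how often such changes would be called among the microglia genes, which vary more. No pair of arrays held identical values. The number of arrays limits the precision.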

Additional observations from a re-analysis of the deposited data

Results flagged for a closer look

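In groups of 5 arrays, an array was marked where its gap to the nearest other array exceeded 0.71 of the whole range of its group, which chance alone gives in about 1 of 20 groups. Of 80 groups examined (the 33 genes, the member median and a few lists and genes, each in 2 groups), 4 met this. Trem2 on Dp5/Dp1 replicate 3 was at 8.69, above the other Dp5/Dp1 arrays. Unc93b1 was at 8.01 and Ly86 at 9.97 on Dp5/Dp1 replicate 4, both below the other arrays of the group. H2-Aa on Dp5/Dp1 replicate 5 was at 7.85, above the rest.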

How the results depend on the processing

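No limma setting called any of the 33 genes, while FCROS passed 4 at its own threshold. The number at an unadjusted p under 0.05 was 5 with choroid plexus markers as a covariate and ran from 2 to 5 over the removals of 1 array (5 without Dp5/Dp1 replicate 4). The number with a higher mean ran from 13 to 23 and the median difference from -0.015 to 0.050 over these removals. The range of the arrays was 0.307 with the mean over members in place of the median, on which Lyz2 and Cd74 weigh more. Gpnmb kept its direction throughout.

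Several differences changed sign, none with an adjusted p below 0.05. Most were near 0, but those of Cd74, H2-Aa and H2-Ab1 (0.341, 0.306 and 0.334) were not, and changed sign without Dp5/Dp1 replicate 5. With renewed quantile normalization Csf3r was -0.000641, Ly86 0.00299 and Il34 0.00451. With median centring P2ry13 was -0.00514 and Csf3r -0.00551. With array weights P2ry13 was -0.029, Csf3r -0.00374, Ly86 0.00612 and Il34 0.016. With choroid plexus markers Cx3cr1 was 0.00124, Csf3r -0.016, Irf8 0.00147, Fcgr3 0.041, Ly86 0.015 and Cx3cl1 -0.00118. With both covariates Cx3cr1 was 0.012, Csf1r 0.00371, Fcgr3 0.00229, Cd68 -0.0063, Hpgds 0.00839 and Aif1 -0.021. Without Dp5/Dp1 replicates 2 and 5 Ctss was -0.035, Aif1 -0.025, H2-Aa -0.054, H2-Ab1 -0.020 and Il34 0.016. Over removals of 1 array the values ran from -0.031 to 0.022 for P2ry12, -0.044 to 0.018 for Cx3cr1, -0.070 to 0.050 for P2ry13, -0.030 to 0.042 for Csf3r, -0.093 to 0.065 for Fcgr3, -0.0077 to 0.093 for C1qc, -0.012 to 0.072 for Ctss, -0.023 to 0.113 for Cd68, -0.066 to 0.552 for Cd74, -0.021 to 0.030 for Siglech, -0.058 to 0.023 for Olfml3, -0.032 to 0.069 for Ly86, -0.072 to 0.025 for Hpgds, -0.010 to 0.057 for Aif1, -0.022 to 0.046 for Cd53, -0.0096 to 0.032 for Cx3cl1, -0.022 to 0.035 for Il34, -0.078 to 0.467 for H2-Aa and -0.078 to 0.511 for H2-Ab1. The cause was not tested.

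The replicate block left 2 members at an unadjusted p under 0.05, 18 with a higher mean and 0 called, with 26 genes called over the array against 41. Same-numbered arrays did not deviate together (r of -0.273, 0.292, -0.011, -0.353 and -0.065 for numbers 1 to 5), and only number 2 correlated best with its own number, so the numbers were not taken as pairs. The limits are 5 mice a group, whole tissue without cell counts, and dim probe sets.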
